A study of Mus musculus with 34 samples.

Results

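The comparison described here adds constitutively active STAT3 to CEBPB in primary mouse neural stem cells (NSC). It sets 5 arrays of cells that received the STAT3C and CEBPB retroviral vectors (STAT3C+CEBPB) against 4 arrays of cells that received the CEBPB vector alone, which makes 9 of the 34 arrays of the series. The arrays were chosen by their labels and by no measured value. All 9 hold total RNA, at 200 ng an array, of NSC taken from the E13.5 mouse telencephalon and transduced with retrovirus, so the control group here also carries a vector and extra CEBPB. The other primary arrays, 5 with the empty pBabe vector and 4 with STAT3C alone, share the fit, and the same vectors were put into the immortalised mouse neural progenitor line C17.2. STAT3C is a STAT3 mutant that is active without cytokine. On the NSC arrays that carry both, the source name writes STAT3 while the transduction label writes STAT3C, and the latter was followed. Strain, time after transduction, selection and the share of transduced cells are not given in the sources used here. Nothing says that the arrays of a group came from separate cultures, so p-values measure the spread between these arrays, which may be technical.

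STAT3 is a transcription factor that Janus kinases activate below receptors of the interleukin-6 family, and it switches on its own inhibitor Socs3. C/EBP beta, the product of Cebpb, is a leucine zipper factor that acts with STAT3 at genes of the acute phase response in liver and myeloid cells. In neural stem cells STAT3 is known for driving astrocyte fate, and the series asks how a set of such factors takes part in the mesenchymal transformation of brain tumours. Adding STAT3C to CEBPB asks which transcripts differ with the active STAT3 when the other factor is present in both groups. The labels give no order of transduction and name no filler vector beside CEBPB alone. The number of vectors and STAT3C therefore cannot be told apart.

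The 9 arrays lay on 2 slides. Slide 5 held replicates 1 to 3 of each group, with the CEBPB arrays in adjacent positions and the STAT3C+CEBPB arrays in the others, so position and vector cannot be told apart there. Slide 6 held CEBPB replicate 4 and STAT3C+CEBPB replicates 4 and 5. Replicate 4 of each of the 4 NSC groups stood apart from the other primary arrays. Xist, made from the inactive X chromosome, had a signal of -7.684 to 12.18 on those 4 arrays and was not detected, against 531.9 to 2050 on the other 14. Eif2s3y, a gene of the Y chromosome, had signals of 382.9 to 437.3 on the 4 arrays and of -12.67 to 7.282 on the rest. The arrays detected 36.3% to 41.7% of probes. Within a group the correlation across genes (genes do not count as replicates) was 0.9858 to 0.9977 on slide 5 and 0.9414 to 0.9676 between the slides. Results below are given over all arrays with slide in the fit, and many also on slide 5 alone (3 against 3 arrays) and in the replicate 4 pair of slide 6 (1 against 1 array, both without Xist). Slide 5 supplied 69.2% of the weight of the estimate over both slides.

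Defining markers of neural stem cells were split. Nes, Sox2, Vim, Fabp7 and Slc1a3 were detected on all 9 arrays, and Pax6, Msi1 and Hes5 on none. Of the neuronal markers, Map2 was detected on all 9, Tubb3 on 2, and Dcx and Stmn2 on none. Of 7 microglial markers, Aif1 and Csf1r were detected on 8 arrays each, Itgam on 3, and Cx3cr1, Ptprc, Tyrobp and C1qa on none. All 5 markers of pericytes and meningeal fibroblasts were detected on none. These are bulk samples, so fewer cells of a type and less RNA per cell cannot be told apart in any of the values below.

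The probes of the added factors did not rise. Stat3 (chromosome 11, 100886806 to 100939594 of GRCm38.p6) read 10.78, 10.61, 10.54 and 10.26 on the 4 CEBPB arrays and 10.55, 10.76, 10.88, 10.47 and 10.88 on the 5 STAT3C+CEBPB arrays, on the log2 scale of the normalised signal that is used throughout. The groups overlapped, and the difference of STAT3C+CEBPB minus CEBPB was 0.19 (SE 0.19, adjusted p = 0.623 by limma over all genes). The 3 Stat3 probes gave differences from 0.02 to 0.19. Cebpb, carried by the vector in both groups, averaged 8.26 ± 0.11 (SD, n = 4) and 8.22 ± 0.14 (n = 5), a difference of -0.06 (SE 0.15, adjusted p = 0.865). Where the probes lie relative to the vector inserts is not given in the sources used here, so these values need not include vector transcripts, and how much of each factor the cells held is unknown.

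With both vectors, 350 genes rose and 352 fell relative to CEBPB alone, of 10858 tested. That is 3.22% and 3.24% of the genes tested, 6.47% together, at an adjusted p below 0.05, the rule for calling a gene in all that follows. The median size of the called log2 differences was 0.70 for rises and 0.57 for falls, and 63 rises and 45 falls were beyond 1, which is a doubling or a halving. The median over all genes tested was -0.01. Arrays of the 2 groups did not overlap for 538 genes, 4.95% of those tested (2.28% higher and 2.67% lower with both vectors), and 288 of these were among the 702 called. Leaving out any array of slide 5 lowered the number of called genes to between 228 (without CEBPB replicate 2) and 413 (without STAT3C+CEBPB replicate 3). It rose to 1001 without CEBPB replicate 4, to 1139 without STAT3C+CEBPB replicate 4 and to 904 without STAT3C+CEBPB replicate 5.

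On slide 5 alone 968 genes were called (8.92%, with 4.38% higher and 4.53% lower), 554 of them among the 702. Within slide 6, with 2 arrays against 1, 0 genes were called by limma and 825 had an unadjusted p below 0.05, and the replicate 4 pair gave 2 called genes (0.0184%) and 874 at an unadjusted p below 0.05. Of the 968 genes called on slide 5, 722 had the same sign in the replicate 4 pair, which is 74.6%, beside 57.6% of all genes tested. Their median size was 0.71 on slide 5, where they were chosen for their change, and 0.19 in the pair, beside 0.19 and 0.16 over all genes tested. Without the 4 arrays that lacked Xist, a setting chosen after seeing the data, 1925 genes were called (17.7%, with 8.35% higher and 9.38% lower), with slide 5 alone then carrying the difference. What separates the replicate 4 arrays from the rest was not tested.

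**Figure D1:**
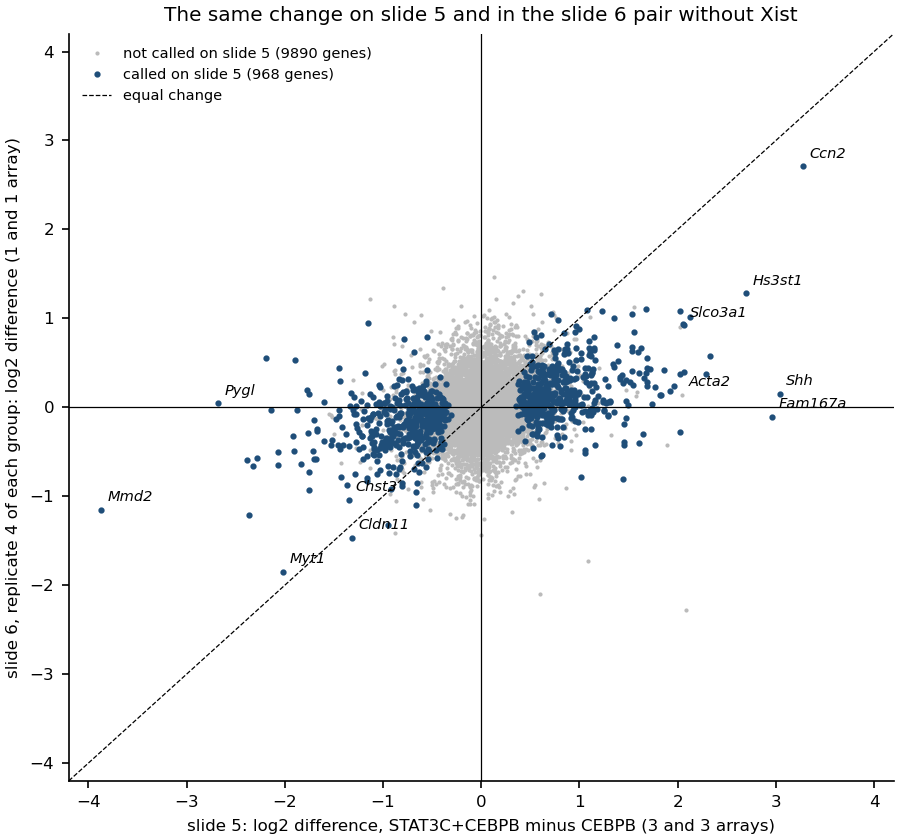
Log2 difference of STAT3C+CEBPB minus CEBPB for 10858 genes, on slide 5 (horizontal axis) and in the replicate 4 pair of slide 6 (vertical axis), with the 968 genes called on slide 5 in blue and equal change as a dashed line. Ccn2, Myt1, Cldn11 and Chst3 lie near the dashed line, while Shh, Fam167a, Acta2 and Pygl lie near 0 in the pair.

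Ccn2, which encodes the matricellular protein CTGF and is a standard target of the YAP and TEAD factors, had the largest rise. It lies on chromosome 10 from 24595442 to 24598683. Its log2 signal was 6.28, 6.28, 6.18 and 6.23 on the CEBPB arrays and 8.91, 8.89, 10.79, 8.94 and 7.55 on the STAT3C+CEBPB arrays. Every STAT3C+CEBPB array lay above every CEBPB array, with replicate 3 the highest and replicate 5 the lowest. The difference was 2.89 (SE 0.35, adjusted p = 0.00042), with 3.28 on slide 5 and 2.71 in the replicate 4 pair. A second Ccn2 probe gave 2.08.

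Of 3 enzymes that put sulfate on glycosaminoglycan chains, Hs3st1 and Hs3st3a1 rose and Chst3 fell, and the family as a whole was not counted. Hs3st1, a heparan sulfate 3-O-sulfotransferase (chromosome 5, 39613935 to 39645592), read 5.07, 5.34, 5.04 and 6.27 with CEBPB and 7.50, 7.44, 8.59, 7.56 and 7.24 with both vectors, a difference of 2.21 (SE 0.26, adjusted p = 0.00042). The groups did not overlap, and the difference was 2.69 on slide 5 and 1.29 in the replicate 4 pair. Hs3st3a1, another 3-O-sulfotransferase, rose by 1.15 (SE 0.16, adjusted p = 0.00103), with 0.27 in the pair. Chst3, which sulfates chondroitin at the 6 position, read 6.90, 6.89, 7.16 and 7.23 with CEBPB and 5.72, 5.6, 5.58, 6.19 and 5.37 with both. It fell by 1.38 (SE 0.15, adjusted p = 0.000198) with no overlap, and both slides gave a fall of like size, -1.35 on slide 5 and -1.04 in the pair. Both Chst3 probes moved the same way.

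Among secreted factors, Shh, the Sonic hedgehog ligand of ventral brain patterning, was at background on each of the 4 CEBPB arrays (4.71, 4.90, 4.57 and 4.51) and was detected on 4 of the 5 STAT3C+CEBPB arrays, at 7.59, 7.49, 8.22, 4.66 and 6.88. The array at 4.66 is replicate 4. Shh was at least 3.90-fold higher with both vectors (adjusted p = 0.00428), where the bound sets the bright group against the lowest signal counted as detected on each CEBPB array. Igf2, insulin-like growth factor 2, rose by 1.46 (SE 0.24, adjusted p = 0.00312) with no overlap, with 1.86 on slide 5 and 0.41 in the pair. Cx3cl1, the chemokine fractalkine, was the 1 called gene of 11 tested chemokines and cytokines, at 0.64 (SE 0.17, adjusted p = 0.0337; 0.22 in the pair).

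Gbx2, a homeobox factor that positions the border of midbrain and hindbrain, read 6.99, 7.09, 7.15 and 8.10 with CEBPB and 9.46, 9.59, 9.18, 8.67 and 8.92 with both vectors. It rose by 1.83 (SE 0.27, adjusted p = 0.00139) with no overlap. The CEBPB array nearest to the other group was replicate 4, and the difference was 2.33 on slide 5 and 0.58 in the pair. Slco3a1, an organic anion transporter, read 7.08, 6.98, 6.84 and 7.07 with CEBPB and 8.99, 9.09, 9.0, 7.99 and 7.76 with both, a rise of 1.68 (SE 0.18, adjusted p = 0.000198) that was 0.92 in the pair. Cemip, which takes part in hyaluronan breakdown, rose by 1.90 (SE 0.29, adjusted p = 0.00178), and Hmox1, the haem-degrading enzyme of the oxidative stress response, by 1.74 (SE 0.32, adjusted p = 0.00568). Both stood above all CEBPB arrays, and their differences in the pair were 1.02 and 1.08.

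Other large rises were near 0 or small in the pair. Fam167a rose by 2.13 (SE 0.47, adjusted p = 0.0141), with 2.96 on slide 5, where the 3 CEBPB arrays were at background (4.74 to 4.76), and -0.11 in the pair, where CEBPB replicate 4 read 6.49. Sytl2, a synaptotagmin-like protein of vesicle transport, rose by 1.83 (SE 0.42, adjusted p = 0.0172; 0.38 in the pair). The 3 Sytl2 probes gave 0.46, 1.48 and 1.83. Col22a1, a collagen chain, rose by 1.67 (SE 0.40, adjusted p = 0.0226), and the pair gave 0.04.

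Genes of the contractile cytoskeleton and of serum response factor (SRF) rose as a minority of their list: 5 of 18 tested members were called higher (27.8%, beside 3.22% of all genes) and 0 lower. The list's median difference was 0.38, beside -0.01 over all genes, and 0.51 on slide 5 and 0.03 in the replicate 4 pair. The 5 were Ccn2, Acta2, Actn1, Tpm1 and Myh9. Acta2, smooth muscle actin (chromosome 19, 34240336 to 34255585), read 9.67, 9.51, 9.59 and 7.28 with CEBPB and 12.02, 11.99, 10.90, 7.42 and 10.14 with both. Both replicate 4 arrays were the low ones of their group, so the groups overlapped although the 3 arrays of slide 5 were separate, and the rise of 1.88 (SE 0.51, adjusted p = 0.039) was 2.05 on slide 5, not called there (adjusted p = 0.0614), and 0.14 in the pair. Actn1, the actin crosslinker alpha-actinin, read 7.79, 7.79, 7.54 and 7.97 with CEBPB and 9.48, 9.54, 9.17, 8.21 and 8.0 with both, a rise of 1.21 (SE 0.22, adjusted p = 0.00568). Its change differed between the slides by 1.55 (SE 0.23, adjusted p = 0.0252), with 1.69 on slide 5 and 0.13 on slide 6. Tpm1 (tropomyosin) rose by 0.53 (SE 0.12) and Myh9 (non-muscle myosin heavy chain) by 0.43 (SE 0.12). A second Tpm1 probe gave 0.09. Srf itself, at 0.12 (SE 0.16), was not called.

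Matrix genes showed 5 rises (18.5%) and 1 fall (3.70%) among 27 tested, with a median of 0.24. Lamc1, a laminin chain, read 10.75, 10.62, 10.63 and 9.45 with CEBPB and 12.11, 12.14, 11.93, 9.97 and 10.29 with both. On slide 5 the groups were apart, and on slide 6 the 3 arrays lay below all arrays of slide 5, in the same order of groups (1.17 over both slides, SE 0.19, adjusted p = 0.00319; 0.52 in the pair). Tnc, the glycoprotein tenascin-C of neural stem cell niches, rose by 1.15 (SE 0.25, adjusted p = 0.013) with no overlap and 0.36 in the pair. Sparc (1.15, SE 0.26), a matricellular protein, Timp2 (1.05, SE 0.22), an inhibitor of metalloproteases, and Hspg2 (0.77, SE 0.19), the proteoglycan perlecan, were the other rises, and in the pair they stood at 0.03, -0.06 and 0.36. The fall was Plod1 (-0.55, SE 0.13, -0.83 in the pair), a collagen lysyl hydroxylase. Fn1, fibronectin, had a difference of 0.03 (SE 0.19).

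Of 43 tested mesenchymal glioma genes, 4 rose (9.30%) and 0 fell, with a median of 0.11. They were Ccn2 and Acta2, which also stand in the contractile list, Col5a1 and Bdnf. Col5a1, a chain of collagen V, read 7.51, 7.50, 7.46 and 7.58 with CEBPB and 8.98, 9.12, 8.43, 8.03 and 8.21 with both, a rise of 1.10 (SE 0.21, adjusted p = 0.00695) with no overlap and 0.45 in the pair. Bdnf, a neurotrophin, rose by 0.72 (SE 0.18, adjusted p = 0.0249), although its 3 probes disagreed in sign. Vim (0.35, SE 0.16), Cd44 (-0.17, SE 0.19) and Chil1 (0.43, SE 0.19), all classical markers of the mesenchymal class, were not called. None of the 7 module regulators, Stat3, Cebpb, Cebpd, Fosl2, Runx1, Bhlhe40 and Zbtb18, was called. Fosl2 and Runx1 had the largest differences, 0.76 (SE 0.30, adjusted p = 0.133) and 0.78 (SE 0.30, adjusted p = 0.13), and Runx1 went from 1.16 on slide 5 to -0.43 in the pair. Runx1 was called on slide 5 alone (adjusted p = 0.0481) and without the 4 arrays that lacked Xist (adjusted p = 0.0311). Of 16 proneural glioma genes 0 rose and 3 fell (18.8%), Sox8, Sox2 and Olig2.

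**Figure D2:**
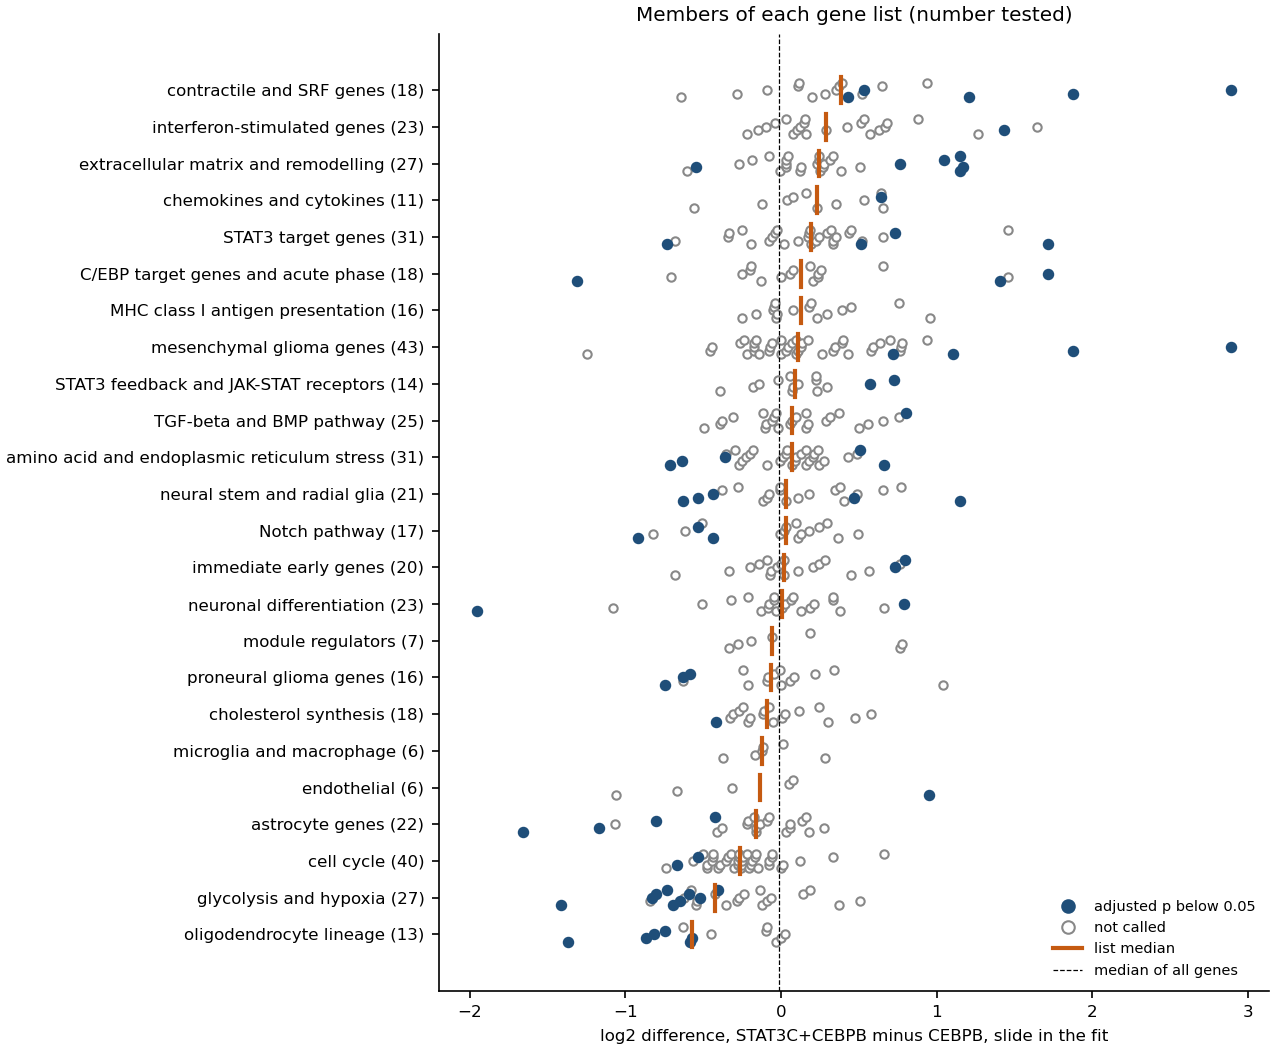
Log2 difference of STAT3C+CEBPB minus CEBPB for each tested member of 24 gene lists, with called genes filled, list medians in orange and the median of all genes dashed. The oligodendrocyte lineage and the glycolysis and hypoxia lists have medians of -0.57 and -0.42 and no called member above 0, and the contractile list has a median of 0.38 and no called member below 0.

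Oligodendrocyte lineage genes were lower with both vectors more often than any other list in the plot of list members: 6 of 13 tested members fell (46.2%, beside 3.24% of all genes) and 0 rose. The list's median was -0.57 over all arrays and -0.33 in the replicate 4 pair. The pair is part of the fit that made the calls, and it was negative for all 6 called members, as for 94.3% of all 352 genes that fell. Cldn11, the claudin of myelin tight junctions (chromosome 3, 31149920 to 31164326), read 7.25, 7.11, 6.65 and 7.30 with CEBPB and 5.70, 5.82, 5.53, 5.83 and 5.80 with both. The groups did not overlap, and the fall of 1.37 (SE 0.18, adjusted p = 0.000729) was -1.32 on slide 5 and -1.47 in the pair. Cnp, a myelin enzyme, read 7.75, 8.04, 8.06 and 8.32 with CEBPB and 6.77, 6.97, 7.25, 7.66 and 7.63 with both and fell by 0.87 (SE 0.15, adjusted p = 0.00366; -0.67 in the pair). These groups were apart as well.

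Pmp22, a myelin membrane protein, fell by 0.81 (SE 0.13, adjusted p = 0.00203) and Mbp, myelin basic protein, by 0.57 (SE 0.12, adjusted p = 0.00994), with -0.42 and -0.33 in the pair. Of the transcription factors, Sox8 read 8.39, 8.51, 8.29 and 8.91 with CEBPB and 7.91, 7.91, 7.40, 8.05 and 7.87 with both, a fall of 0.75 (SE 0.13, adjusted p = 0.00489) that was -0.66 on slide 5 and -0.86 in the pair. Olig2, the basic helix-loop-helix factor that specifies the lineage, fell by 0.59 (SE 0.17, adjusted p = 0.0473), just inside the threshold, with -0.07 in the pair. Its partner gene Olig1 was not called (adjusted p = 0.997), and Pdgfra, the receptor of oligodendrocyte progenitors, had a difference of -0.63 (SE 0.26, adjusted p = 0.155). Sox10, a further defining factor, was detected on none of the 9 arrays.

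Myt1, a zinc finger factor of neural and oligodendrocyte progenitors that was listed here with neuronal genes, gave the clearest separation of the falls. It lies on chromosome 2 from 181763332 to 181827775. Its signals were 6.62, 6.51, 6.45 and 6.48 with CEBPB, detected on all 4 arrays, and 4.51, 4.48, 4.54, 4.63 and 4.70 with both vectors, detected on none of 5. Myt1 was at least 2.91-fold lower with both vectors (adjusted p = 0.000212). Of the other 22 tested genes of neuronal differentiation, 1 was called, Crmp1, a mediator of semaphorin signalling, which rose by 0.79 (SE 0.16, adjusted p = 0.00822; 0.61 in the pair).

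**Figure D3:**
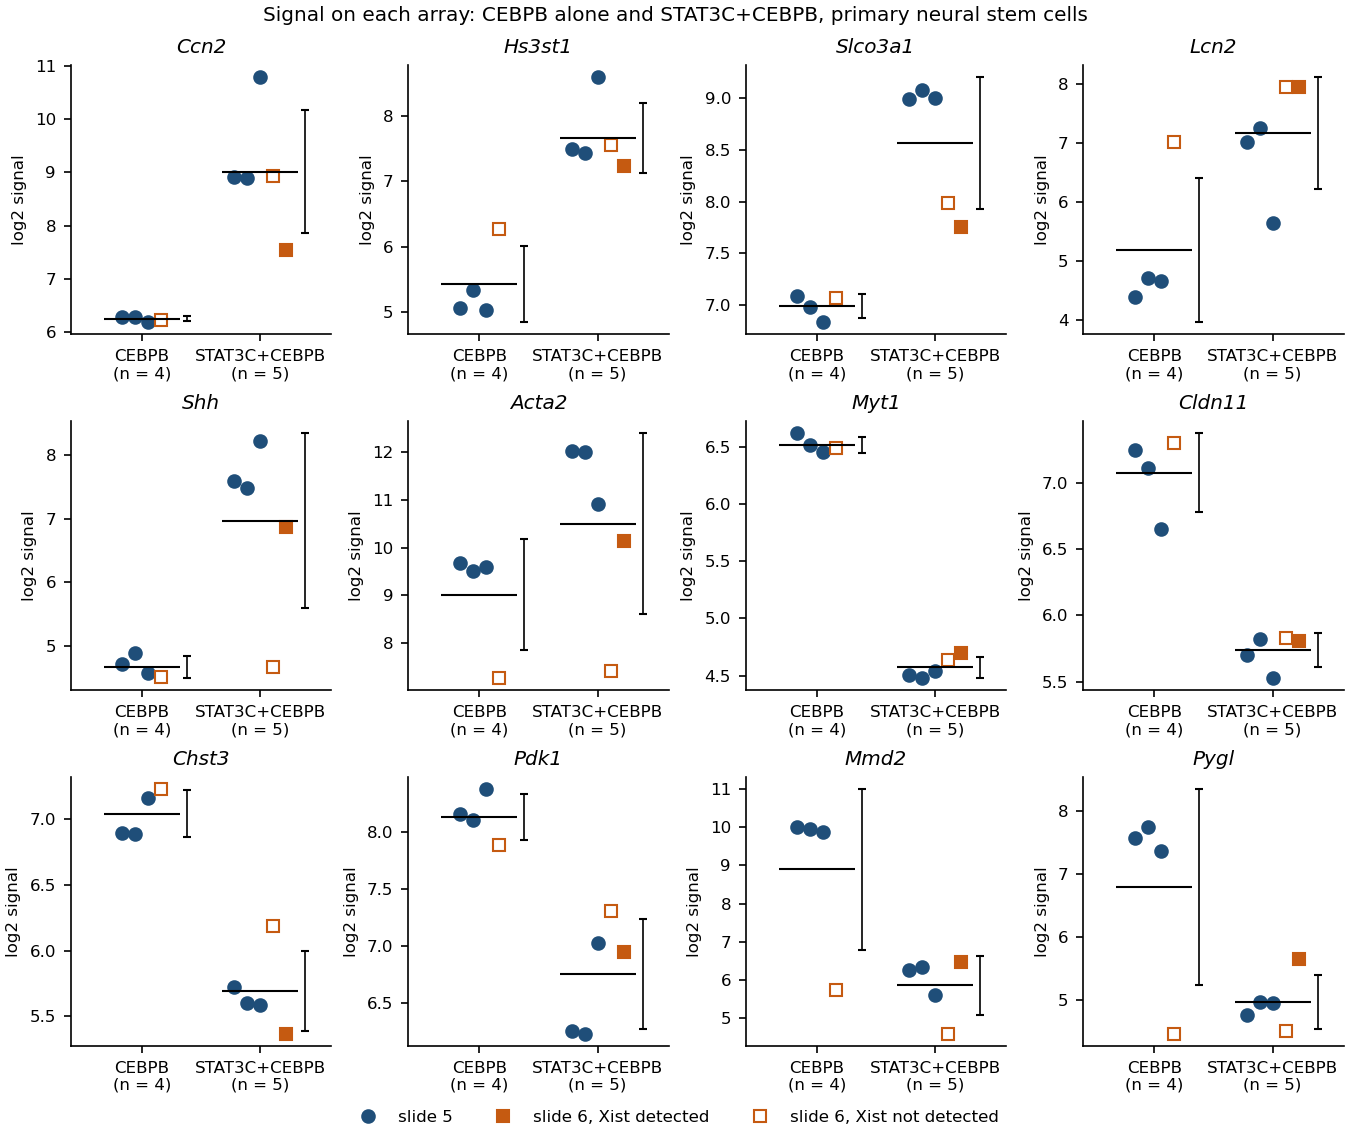
Log2 signal of 12 called genes on each of the 9 arrays, by group, with slide and Xist detection shown by the symbol, the group mean as a line and the SD (n = 4 and n = 5) as a bar beside it. Myt1, Cldn11 and Chst3 separate the groups on both slides, while the replicate 4 arrays of Shh, Acta2 and Pygl lie together at the low end.

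Glycolysis and hypoxia genes fell in 9 of 27 tested members (33.3%) and rose in 0, with 23 of 27 differences negative. The list's median was -0.42 over all arrays, -0.55 on slide 5 and -0.14 in the pair, and 8 of the 9 called members were negative in the pair, beside the 94.3% of all falls. Pdk1, the kinase that holds pyruvate back from the mitochondria, read 8.16, 8.10, 8.37 and 7.88 with CEBPB and 6.26, 6.23, 7.03, 7.31 and 6.95 with both. The groups did not overlap, and it fell by 1.41 (SE 0.27, adjusted p = 0.00637), with -1.70 on slide 5 and -0.58 in the pair. Among the glycolytic enzymes Pfkl (-0.80, SE 0.20), Tpi1 (-0.69, SE 0.13), Ldha (-0.65, SE 0.16), Pgk1 (-0.59, SE 0.14) and Gapdh (-0.52, SE 0.13) fell. Hk1 (-0.07, SE 0.15) and Slc2a1, the glucose transporter GLUT1 (-0.24, SE 0.19), were not called.

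The other called members were Egln3, the oxygen-sensing prolyl hydroxylase (-0.83, SE 0.18), Vegfa, the vascular growth factor (-0.73, SE 0.17), and the cytokine Mif (-0.40, SE 0.11). Vegfa read 10.13, 9.98, 9.91 and 9.31 with CEBPB and 8.84, 8.94, 9.48, 8.96 and 9.07 with both, so the groups overlapped at CEBPB replicate 4. Txnip, an alpha-arrestin that limits glucose uptake, fell by 1.74 (SE 0.43, adjusted p = 0.0248; -1.21 in the pair), and Mgarp, a mitochondrial protein, by 1.80 (SE 0.28, adjusted p = 0.00195; -0.59 in the pair). STAT3C with no added CEBPB gave the glycolysis and hypoxia list a median of -0.27, beside 0.02 over all genes, with 0 genes called in that comparison (558 at an unadjusted p below 0.05). Egln3 read 7.19 on CEBPB replicate 4 and 8.87 to 8.96 on the slide 5 arrays of that group.

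**Figure D4:**
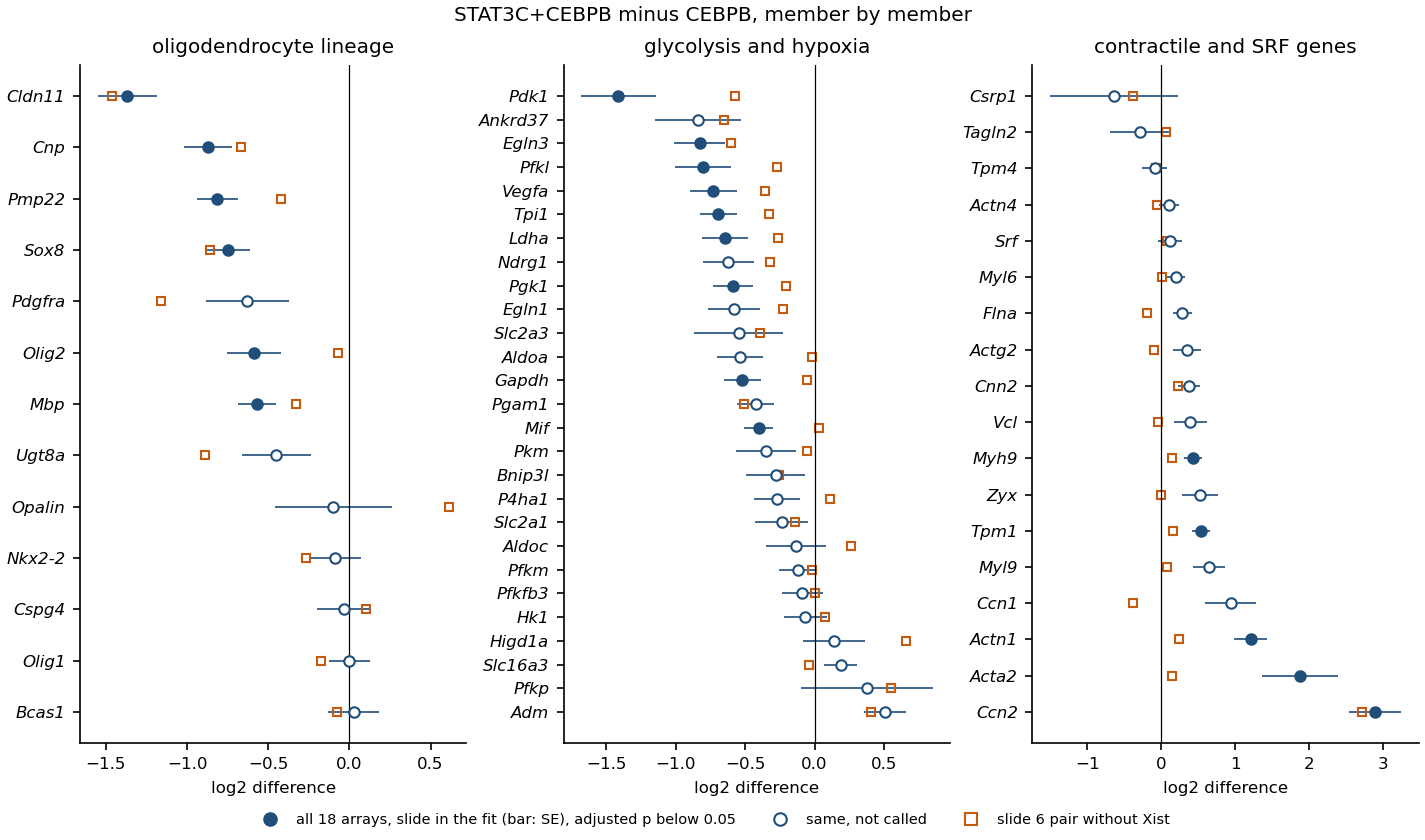
Log2 difference of STAT3C+CEBPB minus CEBPB for each tested member of the oligodendrocyte lineage, glycolysis and hypoxia, and contractile lists (filled: called, bar: SE), with the value in the replicate 4 pair of slide 6 as an orange square. The pair lies beside the estimate over all arrays for Cldn11, Sox8 and Ccn2 and near 0 for Acta2 and most other contractile genes.

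Astrocyte genes fell in 4 of 22 tested members (18.2%) and rose in 0, with a median of -0.16. Aqp4, the water channel of astrocyte endfeet, read 7.13, 7.12, 6.96 and 5.15 with CEBPB and 5.06, 4.81, 4.5, 4.58 and 5.25 with both, and fell by 1.65 (SE 0.32, adjusted p = 0.0067). CEBPB replicate 4 lay among the STAT3C+CEBPB arrays, and the difference was -2.29 on slide 5 and -0.57 in the pair. Fgfr3, an FGF receptor of glial precursors, showed the same layout (8.23, 8.40, 8.72 and 5.86 against 6.56, 6.84, 6.68, 6.01 and 6.04), with a fall of 1.17 (SE 0.27, adjusted p = 0.0194) that was 0.15 in the pair. Slc1a2, a glutamate transporter, fell by 0.43 (SE 0.11, adjusted p = 0.0293; -0.10 in the pair), and Agt, angiotensinogen, detected on all 4 CEBPB arrays and none with both vectors, was at least 1.34-fold lower (adjusted p = 0.0144). Gfap, the intermediate filament that STAT3 is known to induce in astrocytes, had a difference of 0.18 (SE 0.56, adjusted p = 0.892), and Slc1a3, Sox9 and Glul were not called either.

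Neural stem and radial glia genes went both ways, with 2 of 21 higher (Tnc and Lix1) and 3 lower (Sox2, Hes1 and Dll1). The 4 Lix1 probes gave 0.05, 0.07, 0.11 and 0.47, and the gene was read from the last. Sox2, a factor of stem cell identity, read 8.61, 8.76, 8.90 and 8.13 with CEBPB and 8.23, 8.27, 7.79, 7.88 and 7.26 with both, overlapping at CEBPB replicate 4, and fell by 0.63 (SE 0.18, adjusted p = 0.0473; -0.25 in the pair). Of 17 tested genes of Notch signalling 3 fell (17.6%): Nrarp, a feedback inhibitor (-0.92, SE 0.17), Hes1, the transcriptional effector (-0.53, SE 0.11, no overlap), and Dll1, a ligand (-0.44, SE 0.10). No Notch gene rose, the receptors Notch1, Notch2 and Notch3 stood between -0.01 and 0.11, and the median of the list was 0.03. In the pair Nrarp, Hes1 and Dll1 stood at -0.31, -0.48 and -0.41.

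Other large falls belonged to no list. Mmd2, a membrane receptor of the PAQR family, read 10, 9.94, 9.88 and 5.74 with CEBPB and 6.26, 6.34, 5.61, 4.59 and 6.47 with both, and fell by 2.75 (SE 0.59, adjusted p = 0.013), with -3.87 on slide 5 and -1.15 in the pair. CEBPB replicate 4 read like the other group. Pygl, glycogen phosphorylase, was 7.58, 7.75, 7.37 and 4.46 with CEBPB and 4.75, 4.96, 4.95, 4.51 and 5.65 with both, a fall of 1.66 (SE 0.48, adjusted p = 0.0473) that was 0.05 in the pair. A second Pygl probe gave -0.57. Scrg1, a secreted protein (-1.70, SE 0.23, adjusted p = 0.000844), Tsc22d4, a leucine zipper protein (-1.44, SE 0.19, adjusted p = 0.000583), and Cavin3, a coat protein of caveolae (-1.56, SE 0.27, adjusted p = 0.00428), fell without overlap, at -0.65, -0.93 and -0.50 in the pair. A second Cavin3 probe gave -0.69. Prss35, a protease-like protein, fell by 1.71 (SE 0.32, adjusted p = 0.00585; -0.66 in the pair).

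Of 31 STAT3 target genes 3 rose (9.68%, beside 3.22% of all genes) and 1 fell (3.23%, beside 3.24%), with a median of 0.20. Lcn2, the acute phase protein lipocalin-2 (chromosome 2, 32384637 to 32387739), read 4.39, 4.71, 4.67 and 7.02 with CEBPB and 7.02, 7.27, 5.64, 7.96 and 7.95 with both. It was detected on 1 of 4 and on 5 of 5 arrays, and within each slide every STAT3C+CEBPB array was the higher, for a rise of 1.71 (SE 0.26, adjusted p = 0.00178), 2.06 on slide 5, where the CEBPB arrays were at background, and 0.94 in the pair. Klf6, a zinc finger factor, rose by 0.73 (SE 0.15, adjusted p = 0.00999; 0.98 in the pair) and Cdkn1a, the cell cycle inhibitor p21, by 0.52 (SE 0.14, adjusted p = 0.0384), and Vegfa was the fall. The list of C/EBP target and acute phase genes had 2 of 18 higher (11.1%), Lcn2 and S100a8 (1.41, SE 0.25, adjusted p = 0.00475; 0.29 in the pair), a calprotectin chain, and 1 lower (5.56%), Mt2, a metallothionein. The CEBPB vector is in both groups. In the pair Mt2 stood at -0.03. Mt2 was -2.14 on slide 5 and 0.55 on slide 6, and that difference between slides passed its own test (-2.68, SE 0.43, adjusted p = 0.038).

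In the JAK-STAT feedback and receptor list 2 of 14 rose (14.3%) and 0 fell, with a median of 0.09 over all arrays and -0.10 in the pair, where 10 of the 14 were negative. Cish, an inhibitor of cytokine receptor signalling, read 5.72, 5.62, 5.76 and 6.54 with CEBPB and 6.23, 6.34, 6.35, 6.90 and 7.18 with both. The arrays were in the same order of groups on each slide, for a rise of 0.57 (SE 0.13, adjusted p = 0.0168; 0.36 in the pair). Ptpn2, a phosphatase that acts on JAK and STAT proteins, rose by 0.72 (SE 0.15, adjusted p = 0.0118), but a second probe gave -0.03. Socs3, the main feedback inhibitor of STAT3, read 8.27, 8.38, 8.42 and 6.33 with CEBPB and 8.17, 8.20, 8.31, 6.84 and 7.83 with both, a difference of 0.22 (SE 0.31, adjusted p = 0.731), which was -0.13 on slide 5 and 0.51 in the pair.

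The promoters of Cish, Socs3 and Lcn2 are shown as the 300 bases around the RefSeq start in GRCm38.p6. Cish and Socs3 encode inhibitors of cytokine signalling and Lcn2 an acute phase protein. Socs3, unlike the other 2, was not called. Capitals mark the letters TTCNNNGAA (STAT, the same on both strands), TTNNGCAA on either strand (C/EBP) and GGAATG on either strand (TEAD). The 3 windows are chr9:107296409-107296708 on the plus strand, chr11:117969317-117969616 on the minus strand and chr2:32387690-32387989 on the minus strand, each printed 5′ to 3′.
Cish: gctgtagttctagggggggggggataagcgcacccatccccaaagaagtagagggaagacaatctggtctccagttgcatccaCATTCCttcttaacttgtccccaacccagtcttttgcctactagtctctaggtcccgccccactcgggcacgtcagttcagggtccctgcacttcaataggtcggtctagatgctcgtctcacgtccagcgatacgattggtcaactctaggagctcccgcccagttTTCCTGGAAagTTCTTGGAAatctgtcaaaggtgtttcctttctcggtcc
Socs3: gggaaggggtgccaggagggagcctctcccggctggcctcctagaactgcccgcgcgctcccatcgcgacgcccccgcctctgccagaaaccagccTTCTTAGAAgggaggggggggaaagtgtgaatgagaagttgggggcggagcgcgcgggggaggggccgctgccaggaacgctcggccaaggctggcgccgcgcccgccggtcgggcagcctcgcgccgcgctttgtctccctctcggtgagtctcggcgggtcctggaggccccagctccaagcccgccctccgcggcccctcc
Lcn2: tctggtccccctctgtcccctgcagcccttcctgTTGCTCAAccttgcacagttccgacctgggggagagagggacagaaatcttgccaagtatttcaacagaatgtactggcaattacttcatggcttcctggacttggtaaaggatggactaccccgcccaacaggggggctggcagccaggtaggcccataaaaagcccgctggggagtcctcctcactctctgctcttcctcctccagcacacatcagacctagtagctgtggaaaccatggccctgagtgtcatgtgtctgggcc

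Cish held 2 matches to the STAT letters and 1 to the TEAD letters, Socs3 held 1 to the STAT letters, and Lcn2 held 1 to the C/EBP letters. Over all genes, the STAT letters stood in 6.87% of the 11289 promoters of genes tested, in 5.31% of the 377 promoters of genes that rose and in 6.06% of the 396 of genes that fell. The C/EBP letters stood in 8.12%, 6.90% and 8.59%, and the TEAD letters in 12.1%, 13% and 12.9%. A gene can have several promoters in these counts, 274 of the 350 rises and 289 of the 352 falls had at least 1, and a match of letters is a description and not a binding site.

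Interferon and antigen presentation genes were mostly not called. Of 23 interferon-stimulated genes 1 rose, Ifi27 (9.97, 10.01, 9.89 and 10.18 with CEBPB, 12.20, 12.17, 10.25, 10.35 and 12.18 with both), at 1.43 (SE 0.39, adjusted p = 0.037; 0.17 in the pair). Its 5 STAT3C+CEBPB arrays fell into 3 near 12.2 and 2 near 10.3. The median of the list was 0.29 over all arrays, 0.54 on slide 5 and -0.09 in the pair, where Usp18 and Rsad2 stood at -2.28 and -2.10. None of 16 genes of MHC class I antigen presentation was called, and the largest differences were those of the heavy chains H2-D1 (0.96, SE 0.43, adjusted p = 0.194) and H2-K1 (0.76, SE 0.32, adjusted p = 0.167). H2-D1 was called with slide 6 split by Xist (0.63, adjusted p = 0.0157) and without the 4 arrays that lacked it (0.67, adjusted p = 0.0390).

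Cell cycle genes had 36 of 40 differences below 0 and a median of -0.26, with 2 called falls (5.0%, beside 3.24% of all genes) and 0 rises. Over all 10858 genes, 5698 differences were below 0. The 2 were Cdkn3, a phosphatase acting on cyclin-dependent kinases (-0.67, SE 0.18, adjusted p = 0.0338; 0.03 in the pair), and the mitotic kinase Aurkb (-0.53, SE 0.14, adjusted p = 0.0281; -0.20 in the pair). In the pair the median was -0.09, with 29 of 40 below 0. Immediate early genes had 2 rises in 20, the ERK phosphatase Dusp4 (0.80, SE 0.20, adjusted p = 0.0261; 0.31 in the pair) and Klf6. The list of amino acid and endoplasmic reticulum stress genes had 2 rises in 31, the factor Atf4 (0.66, SE 0.17) and Herpud1 (0.51, SE 0.14), at 0.08 and 0.17 in the pair, and 3 falls, Atf5 (-0.72, SE 0.17), Ddit4 (-0.64, SE 0.17) and Sars (-0.36). Of 18 cholesterol synthesis genes 1 fell, Srebf2, the factor that switches the pathway on (-0.42, SE 0.10), and of 25 TGF-beta and BMP genes 1 rose, the receptor Tgfbr2 (0.80, SE 0.14, adjusted p = 0.00344), whose 3 probes disagreed in sign.

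Markers of other cell types were read on the same arrays. None of the 6 tested microglia and macrophage genes was called, Slco1c1 was called higher among 6 endothelial genes (0.95, SE 0.22, adjusted p = 0.0175; 0.42 in the pair) and Igf2 among 3 of pericytes and meningeal fibroblasts, and no erythroid gene was tested. The summed linear signal of the 5 pericyte and fibroblast markers was 107.7 to 116.6 on the CEBPB arrays and 107.8 to 116.9 with both vectors, with Pdgfrb, Rgs5, Col1a1, Dcn and Lum each detected on none of the 9. The summed signal of the oligodendrocyte markers Olig2, Sox10, Pdgfra and Mbp was 423.3 to 555.3 with CEBPB and 280.3 to 419.8 with both, without overlap. Olig2 and Mbp were already called as falls on these arrays, so that sum is not a separate result. The sums overlapped for neural stem cell markers (15670 to 29940 and 15480 to 28860), astrocyte markers (178.1 to 685.8 and 152.6 to 796.9) and neuronal markers (1607 to 3331 and 1869 to 2964). 

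Whether STAT3C does something else beside CEBPB than on its own was tested as an interaction in the same fit. Of the arrays with the empty vector or STAT3C alone, 3 of each lay on slide 4, which held no CEBPB array. The rest lay on slide 6. For most arrays the presence of CEBPB and the step from slide 4 to slide 5 therefore cannot be told apart in this test. Of 10858 genes 4 passed (0.0368%), and 1540 had an unadjusted p below 0.05. Aak1, a kinase of clathrin adaptors, had a difference of 0.98 beside CEBPB (5.33, 5.19, 4.96 and 5.31 against 6.21, 6.21, 6.35, 6.05 and 6.02, no overlap) and of -0.14 beside the empty vector, an interaction of 1.12 (SE 0.18, adjusted p = 0.0435). Hs3st3a1 had 1.15 and -0.28 (interaction 1.44, SE 0.23), Zfhx2, a zinc finger homeobox factor, 1.21 and -0.42 (interaction 1.64, SE 0.27) and Necab2, a calcium-binding protein that no STAT3C+CEBPB array detected and that was at least 1.52-fold lower, -0.78 and 0.17 (interaction -0.95, SE 0.15), all at the same adjusted p. The 3 Aak1 probes gave differences from 0.06 to 0.98 beside CEBPB. Aak1 on the CEBPB arrays was near the lowest signals counted as detected there (4.91 to 5.13). For Ccn2 the interaction was 2.47 (adjusted p = 0.0753), for Myt1 -1.71 (adjusted p = 0.0688) and for Cldn11 -1.12 (adjusted p = 0.0918), so for most genes called beside CEBPB a difference from STAT3C alone was not shown. The 4 calls depended on single arrays, with 0 left when any of 10 of the 18 arrays was absent, 220 without CEBPB replicate 4 and 144 without STAT3C+CEBPB replicate 4.

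The same comparison in C17.2 cells had 4 arrays of each group. All 4 STAT3C+CEBPB arrays lay on slide 3, with CEBPB replicates 3 and 4, while CEBPB replicates 1 and 2 lay on slide 2. With slide in the fit, the C17.2 differences therefore rest on 4 arrays against those 2 CEBPB arrays of slide 3. In C17.2 the joint fit gave 0 called genes of 11713 (645 at an unadjusted p below 0.05), beside 406 in NSC (3.47%). A difference between the cell types passed for 22 genes (0.188%). Myt1 had -1.81 (SE 0.17) in NSC and 0.02 (SE 0.22) in C17.2, Cldn11 had -1.37 (SE 0.16) and 0.04 (SE 0.20), and Gbx2 had 1.91 (SE 0.23) and 0.19 (SE 0.29). These 3 were detected on 0 of the 8 C17.2 arrays, as were 12 of the 22 genes. A fall, such as that of Myt1 or Cldn11, could therefore not be measured there. Gbx2, which rose in NSC, stayed at background on the C17.2 arrays with both vectors (4.54 to 4.72). Of the genes detected on all 8, Scrn1, a secernin, had 1.45 (SE 0.23) in NSC and -0.56 (SE 0.29) in C17.2, and Cavin3 had -1.59 (SE 0.24) and 0.22 (SE 0.31). For Scrn1 the 2 C17.2 CEBPB arrays of slide 3 read 7.93 and 6.89, against 6.58 to 7.04 with both vectors. Lcn2 gave 1.64 (SE 0.49) and 1.75 (SE 0.63), a difference of -0.11 (SE 0.80, adjusted p = 0.983), on 2 C17.2 arrays above background. Ccn2, at 10.34 to 12.78 on the C17.2 CEBPB arrays, had 1.31 (SE 0.54) there and 3.01 (SE 0.42) in NSC in this fit, a difference of 1.70 that did not pass (adjusted p = 0.359). The 2 C17.2 CEBPB arrays of slide 3 read 10.34 and 12.36 for Ccn2, against 11.83 to 13.35 with both vectors. The number called was 3 without C17.2 CEBPB replicate 3, NSC CEBPB replicate 1 or NSC CEBPB replicate 2, and was 143 without C17.2 CEBPB replicate 4 and 130 without NSC CEBPB replicate 4.

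**Figure D5:**
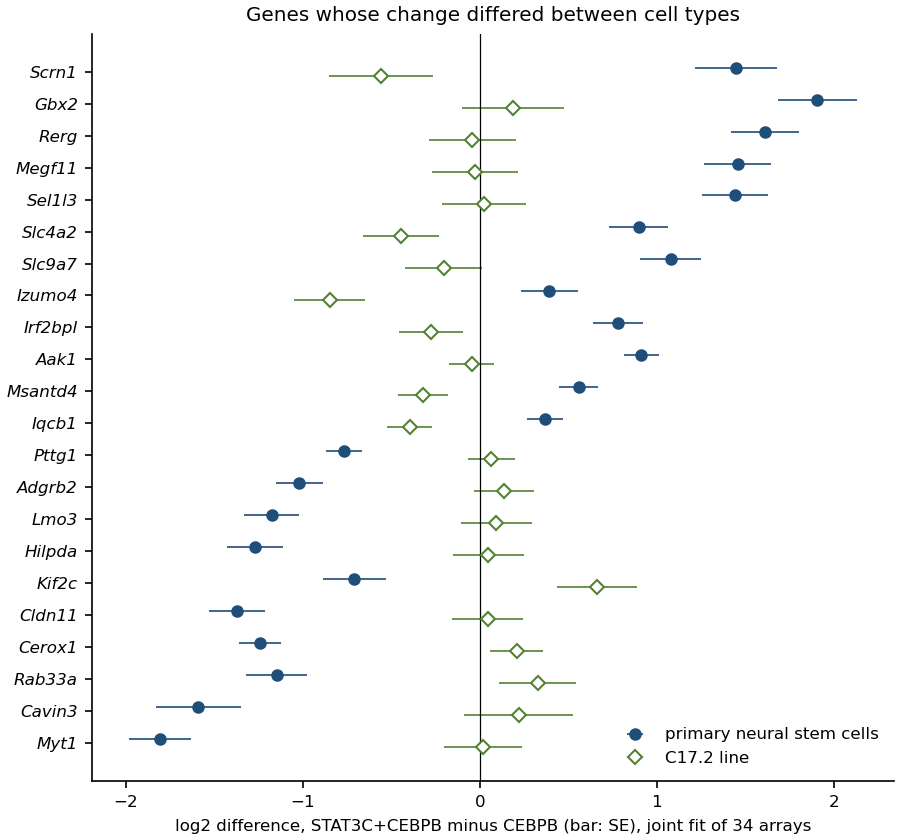
Log2 difference of STAT3C+CEBPB minus CEBPB (bar: SE) in primary NSC (circles) and in the C17.2 line (diamonds) for the 22 genes whose change differed between the cell types in a joint fit of 34 arrays. Myt1 and Gbx2 stand at -1.81 and 1.91 in NSC and near 0 in C17.2, where no array detected them. With slide in the fit, the C17.2 differences rest on 4 STAT3C+CEBPB arrays against the 2 CEBPB arrays of slide 3.

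A test of the slides against each other passed for 10 genes (0.0921%), with 1086 at an unadjusted p below 0.05. Elmo1, an activator of Rac, had 1.45 on slide 5 and -0.42 on slide 6 (adjusted p = 0.0197), Ppp1r3c, a glycogen-targeting subunit of protein phosphatase 1, -1.90 and 0.35 (adjusted p = 0.0197), and Decr1, an enzyme of fatty acid oxidation, -0.79 and 0.91 (adjusted p = 0.0197). Col6a1, a collagen VI chain, had -2.19 and 0.89 (adjusted p = 0.0321), and its 4 CEBPB arrays read 8.41, 8.64, 8.74 and 4.49. The slide 6 values are all against that 1 CEBPB array. The number called was 0 without CEBPB replicate 2 or 3 or STAT3C+CEBPB replicate 1 or 2, and 311 without STAT3C+CEBPB replicate 4.

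Of the 702 genes, 69 were called in the same direction in all 22 other settings tried outside slide 6 alone, each single array of the 9 left out included. These 42 rises and 27 falls include Ccn2, Hs3st1, Slco3a1, Cemip, Gbx2, Scrn1, Hs3st3a1, Col5a1 and Timp2 among the rises and Cldn11, Chst3, Sox8, Pmp22, Pdk1, Tpi1, Cavin3, Mgarp and Hilpda, a lipid droplet protein induced by hypoxia, among the falls. Myt1 is absent from this count only because no STAT3C+CEBPB array detected it, which took it out of the setting that asks for detection on all 9 arrays. Vegfc, a lymphatic growth factor (0.85), Nrg1, a ligand of ErbB receptors (0.88), and Cryab, a small heat shock protein (0.90), are also among the 69, and they and Hilpda were chosen for naming after their values were seen. A place among the 69 did not require a like change on the 2 slides. Hilpda had -1.60 on slide 5 and -0.36 on slide 6, and it passed the test of the slides against each other. Hs3st3a1 had 1.44 on slide 5 and 0.27 in the pair, and Timp2 stood at -0.06 in the pair. Chst3 had -1.35 and -1.04.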

How the data were processed

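Total RNA was hybridised to Illumina MouseWG-6 v2 BeadChips, 1 colour, and 34 arrays on 6 slides were used. The deposited scanner tables give a bead signal intensity for each of 45281 probes, already background-subtracted by the authors since values lie below 0, with a detection p-value and the number of beads, per the file headers. The deposited series table holds the authors' processed values of the same arrays on a log2 scale, used only as an alternative. How those were normalised is not given in the sources used here.

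From the intensities, the normexp background was fitted through the detection p-values, an offset of 16 was added, and arrays were quantile-normalised and put on the log2 scale (limma 3.58.1 in R 4.3.3). Genes needed a probe detected at p below 0.05 on at least 4 arrays, and a gene was read from its detected probe with the highest mean signal. Of the probes 34885 had 1 gene symbol, 18 had several and 10378 had none; 34807 matched a RefSeq name. The 18 NSC arrays were fitted together with lmFit and eBayes, with slide as a term, and p-values were adjusted by Benjamini-Hochberg over 10858 genes. The joint fit with C17.2 used all 34 arrays. The number of arrays limits the precision. The code was tested on simulated data.

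Samples were grouped by their transduction labels, and replicates were numbered in accession order. No 2 of the 9 arrays held identical probe values. Named genes were the module regulators and Socs3, the 12 largest rises and falls among called genes, up to 4 called members of each list and up to 6 genes of each difference test. Others, such as the rest of the glycolysis falls, were named after their values were seen. The members and lists were chosen with earlier results of these data known. Alternatives covered slide, normalisation, offset, filter, probe choice, each array left out and the arrays without Xist. Promoters came from RefSeq, and no genome was used.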

Additional observations from a re-analysis of the deposited data

Results flagged for a closer look

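After removal of the slide difference, 13 of 64 group tests over named genes held an array farther from its group than Dixon's 95% limit. That limit flags about 1 in 20 tests by chance only where all arrays of a group vary alike. Arrays of slide 5 were closer to each other than to those of slide 6, and many genes were named for large differences. The 1 in 20 is therefore no measure of chance here. CEBPB replicate 4 was the outlying array for 8 genes. Its slide-adjusted value, which is not a reading, was 7.08 for Ccn2 (others 6.24 to 6.34, while its own signal was 6.23 and the group's 6.18 to 6.28), 7.08 for Fam167a (5.39 to 5.42) and 8.31 for Gbx2 (7.22 to 7.39). It was the low array at 4.86 for Aqp4 (6.01 to 6.18), 5.81 for Pygl (7.65 to 8.03), 5.17 for Scrg1 (5.85 to 5.95), 6.67 for Txnip (7.84 to 7.95) and 6.33 for Mmd2 (8.52 to 8.64). STAT3C+CEBPB replicate 3 stood at 8.45 for Hs3st1 (6.93 to 7.35), 8.13 for Hmox1 (6.42 to 6.69) and 8.18 for Cebpd (8.37 to 8.43). The other arrays were STAT3C+CEBPB replicate 5 for Socs3, at 9.14 (8.15 to 8.29), and CEBPB replicate 2 for Zbtb18, at 8.20 (8.41 to 8.44).

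Tests of a difference between changes passed for these named genes. Beside CEBPB against beside the empty vector, the difference was 1.12 for Aak1, 1.44 for Hs3st3a1, -0.95 for Necab2 and 1.64 for Zfhx2. Between NSC and C17.2 it was -1.83 for Myt1, 0.96 for Aak1, 2.01 for Scrn1, 1.66 for Rerg, 1.49 for Megf11, 1.72 for Gbx2 and -1.81 for Cavin3. There it was also -1.42 for Cldn11 and -1.32 for Hilpda. The 6 Megf11 probes gave differences from 0.19 to 1.43 in the NSC fit. Myt1, Cldn11, Aak1, Rerg, Megf11 and Gbx2 were detected on 0 of the 8 C17.2 arrays, while Scrn1, Cavin3 and Hilpda were detected on all 8. A fall of Myt1 or Cldn11 could therefore not be measured in C17.2. Aak1, Rerg, Megf11 and Gbx2, which rose in NSC, stayed at background in C17.2 with both vectors. Between slide 5 and slide 6 it was 1.87 for Elmo1, -1.69 for Decr1, -2.25 for Ppp1r3c, -3.08 for Col6a1, -2.68 for Mt2 and 1.91 for Slc14a2. Between the slides it was also 1.55 for Actn1 and -1.23 for Hilpda.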

How the results depend on the processing

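The 702 called genes became 101 with no slide term (59 rose, 42 fell), 359 with the 9 arrays alone, 416 with median scaling (251 rose, 165 fell), 0 within slide 6, 2 in the replicate 4 pair, 1472 with slide 6 split by Xist, 1925 without the 4 arrays that lacked Xist, and 228 to 1139 with an array left out. The Xist settings were chosen after seeing the data. Of the 702, all kept their sign in every setting that tested them, except within slide 6 (679) and in the pair (652). Where detection on all 9 arrays was asked, 598 were tested. In the pair the sign turned for Fam167a (-0.11), Pygl (0.048), Timp2 (-0.058), Fgfr3 (0.15), Cdkn3 (0.030), Ppp1r3c (0.53) and Elmo1 (-0.42). Within slide 6 it turned for Pygl (0.62), Mt2 (0.55), Fgfr3 (0.17), Herpud1 (-0.036), Ppp1r3c (0.35) and Elmo1 (-0.42). The 4 interaction calls became 0 with no slide term or no filter, 10 on the deposited values, 189 with the split, 697 without the arrays that lacked Xist, and 0 to 220 with an array left out. The 22 differences from C17.2 became 37 on the deposited values, 7 with no slide term, 95 with the split, 292 without the arrays that lacked Xist, and 3 to 143 with an array left out. The 10 differences between slides became 59 against the pair and 0 to 311 with an array left out. The cause was not tested. No paired analysis was possible because the labels carry no replicate numbers. Genes near background have compressed differences.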
